A study of Mus musculus with 6 samples.

Results

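The collagens, laminins and 5 companion matrix proteins were examined in the testis of mice on 2 diets. Members were chosen by name, as every probe whose platform symbol is a collagen chain, a laminin chain, Fn1, Sparc, Dcn, Lum or Bgn, which gave 124 probes for 55 genes, of 45281 probes and 19057 named genes on the array. The WD group was C57Bl/6 males, 4 months old, on a Western-like diet rich in butter and sucrose that the labels call high fat (mice 3, 4 and 6). The SD group was C57Bl/6 males of the same age on standard chow (mice 1, 2 and 5). Whole testis RNA of each mouse was measured on 1 Illumina mouse BeadChip array, so each diet had 3 arrays. Within each diet the arrayed mice were picked at random, but the study had first removed those with the strongest diet effect from the pool, which limits the arrays as a picture of the diet.

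The extracellular matrix of the testis has a sheet-like part and a fibrous part. Type IV collagens, which assemble from α chains, and laminins, which each hold an α, a β and a γ chain, form the basement membrane on which Sertoli cells and spermatogonia rest, and it is laid down jointly by Sertoli cells and peritubular myoid cells. Fibrillar collagens form the tensile fibres of the tubule wall and the interstitium, with FACIT collagens on the fibre surface and small leucine-rich proteoglycans such as decorin (Dcn) and biglycan (Bgn) spacing the fibres.

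The genes of type IV collagen lie in head-to-head pairs, and the sequence at the starts of one such pair is shown because the diet values of both its members are given below. In RefSeq's annotation of GRCm38.p6, the start of Col4a1 (minus strand) and the start of Col4a2 (plus strand) were 21 bases apart on chromosome 8. Capitals mark the 22 bases from one start to the other, which lie within both annotated genes, read on the plus strand at chr8:11312801-11312830.
Col4a1 and Col4a2: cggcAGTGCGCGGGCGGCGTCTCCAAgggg

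For 3 further members whose diet values are described below, the 100 bases before the start are shown, since no other annotated gene spans them. Capitals mark the TATA box letters TATAAA, the CAAT box letters CCAAT or the GC box letters GGGCGG, each searched on both strands. No matches overlapped in these windows. Of 32851 promoter windows in the RefSeq table, each of 250 bases before and 50 after a start, 5.56% held TATAAA, 18.9% CCAAT and 24.7% GGGCGG. These windows are longer than the 100 bases shown and reach past the start, so the shares are not background rates for the stretches below.
Sparc, minus strand, chr11:55420081-55420180: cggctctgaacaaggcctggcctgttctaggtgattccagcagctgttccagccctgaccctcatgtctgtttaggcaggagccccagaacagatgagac
Col17a1, minus strand, chr19:47692043-47692142: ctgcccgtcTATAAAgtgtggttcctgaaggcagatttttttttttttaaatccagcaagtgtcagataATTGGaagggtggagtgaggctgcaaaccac
Col8a1, minus strand, chr16:57754738-57754837: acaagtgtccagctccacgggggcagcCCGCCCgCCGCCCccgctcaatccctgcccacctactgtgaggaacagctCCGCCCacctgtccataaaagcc
The letters were present 1 time each for TATAAA and CCAAT before Col17a1, 3 times for GGGCGG before Col8a1, and not at all before Sparc. A match is a description of the letters, not a binding site.

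The basement membrane genes were detected more completely than the fibrillar genes. A probe counted as detected at a detection p under 0.05. Of 17 basement membrane genes (type IV collagens, laminin chains and the multiplexins Col15a1 and Col18a1), 12 had a probe detected on all 6 arrays, which was 70.6%, against 4 of 11 fibrillar genes, which was 36.4%. The share was 50.9% over all named genes. No probe of Col10a1, Col13a1, Col4a6, Col5a2, Col6a6, Lama4 or Lama5 was detected on any array.

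**Figure D1:**
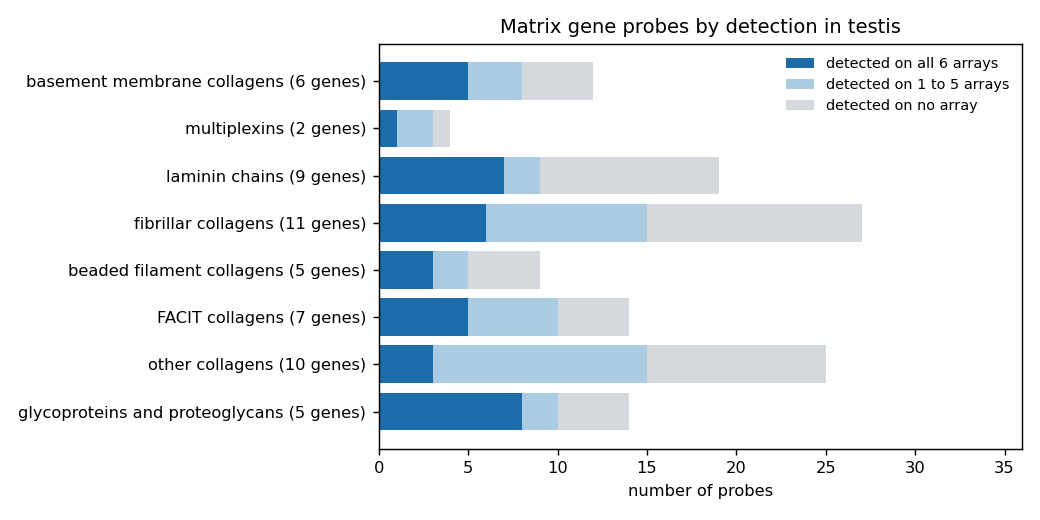
Number of probes of each class of matrix gene (bars, x axis) that were detected on all 6 arrays, on 1 to 5 arrays or on none. Fibrillar collagens had 27 probes, of which 6 were detected on all 6 arrays and 12 on none.

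Detection differed between probes of the same gene. Among the 35 genes with several probes, 11 had a probe detected on all 6 arrays and another detected on none, so an undetected probe did not show an undetected gene. Col1a1, a main chain of interstitial fibres, was detected on some arrays but too few to be tested, while its partner Col1a2 was detected on all 6. Col4a5 was detected on all 6 arrays and its head-to-head neighbour Col4a6, whose start lies 1343 bases away on the X chromosome, was not detected by any of its 4 probes. The number of member probes detected per array was 58, 52 and 58 in WD mice 3, 4 and 6 and 44, 53 and 61 in SD mice 1, 2 and 5.

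Between diets, no matrix probe passed the threshold. A probe was tested when it was detected on at least 3 of the 6 arrays, whatever the diet, which left 57 member probes for 40 genes among 19763 probes in all. All values are normalised log2 signals. With limma and Benjamini-Hochberg adjustment, 0 of 57 members and 0% of all tested probes had an adjusted p under 0.05, and the smallest adjusted p of any probe was 0.801. An unadjusted limma p under 0.05 was found at 9 of 57 member probes (15.8%), against 5.13% of all tested probes. Of these, 7 were higher in WD testis (2.56% of all tested probes were) and 2 lower (2.57%). The 3 mice of each diet did not overlap at 13 member probes, or 22.8%, against 10.2% of all tested probes. At 9 of them WD was higher (5.17% of all tested probes) and at 4 lower (4.98%). Both counts include Fn1 (ILMN_2588227), detected on 0 WD and 3 SD arrays, and Col15a1 and Col4a3, each detected on 3 WD arrays and 1 SD array. These passed the detection minimum through the diet where they were higher, so their detection and their difference are one measurement. They enter the gene counts below too. The mean was higher in WD at 38 of 57 member probes (66.7%), against 49.8% of all tested probes. Counted by gene, with the brightest tested probe for each, the mean was higher in WD in 23 of 40 member genes (57.5%), against 51.7% of all tested genes, and the median difference was 0.04, against 0.01. An unadjusted limma p under 0.05 was found for 4 genes that were higher (2.48% of all tested genes) and 2 that were lower (2.08%). The count of 9 was 5 without SD mouse 1 (8.77%, against 3.88% of all tested probes). It was also 5 when only the 38 member probes detected on all 6 arrays were kept (13.2%, against 4.96% of all such probes). Probes of a gene share their target, so the probe counts are not of independent genes. The size of the differences depended on the background correction. At the 9 probes the signs were kept without it and in the deposited log2 values, but Lamb2 differed by 0.36 in both (0.69 with it), Col4a1 by 0.27 in both (0.50), Col15a1 by 0.20 and 0.23 (0.59), Col14a1 by 0.18 and 0.20 (0.49) and Fn1 by -0.26 and -0.23 (-0.75), while Sparc differed by 0.52 and 0.45 (0.55). In whole testis, fewer cells of a type and less RNA per cell cannot be told apart.

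**Figure D2:**
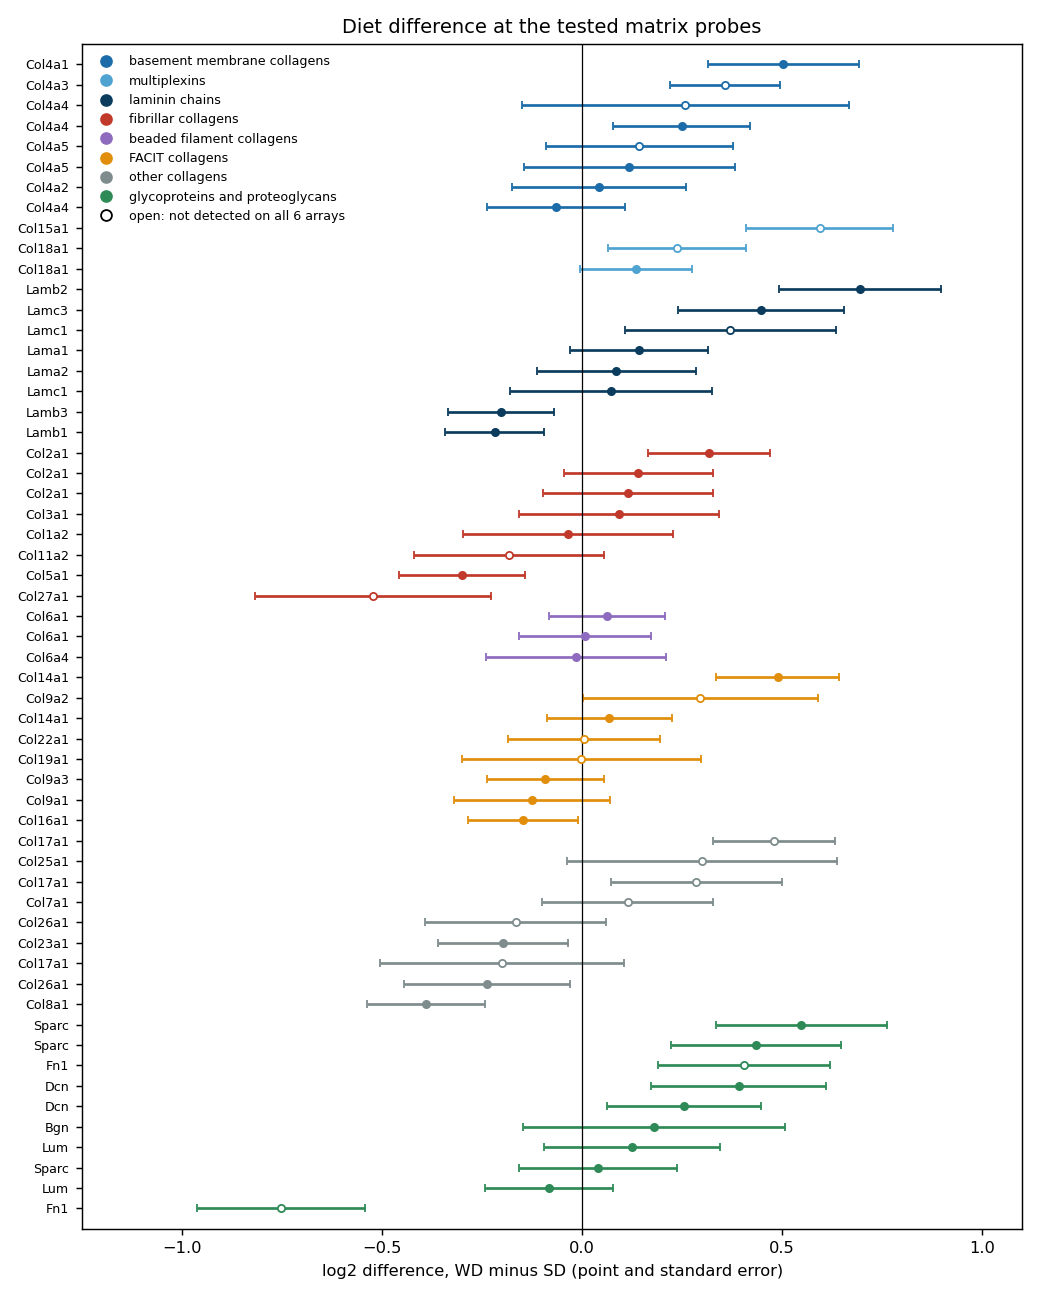
Log2 difference between diets, WD minus SD, at each of the 57 tested matrix probes (points, x axis) with its standard error (bars). Points right of 0 were higher in WD testis, as 38 of the 57 were.

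Among the laminin chains the largest difference was at Lamb2. Lamb2, which codes for the laminin β2 chain, had log2 signals of 7.56, 7.29 and 7.01 in WD mice 3, 4 and 6, against 6.83, 6.69 and 6.25 in SD mice 1, 2 and 5. Every WD mouse lay above every SD mouse. The difference was 0.69 ± 0.20 (SE, n = 3 mice per diet, limma adjusted p = 0.872). The γ chain Lamc3 was at 7.22, 6.83 and 6.90 in WD mice and 6.14, 6.87 and 6.60 in SD mice, and the diets overlapped. The other β chains ran the other way, since Lamb1 was at 5.87, 5.94 and 5.94 in WD mice and 6.04, 6.15 and 6.21 in SD mice, and Lamb3 was at 7.59, 7.57 and 7.59 in WD mice and 7.62, 7.82 and 7.92 in SD mice. For both, every WD mouse lay below every SD mouse, with limma adjusted p = 0.936 for each. The α chains Lama1 (7.43, 7.15 and 7.36 in WD, 7.34, 6.85 and 7.33 in SD) and Lama2 (7.03, 6.59 and 7.07 in WD, 7.04, 6.91 and 6.48 in SD) and the common γ chain Lamc1 overlapped between diets.

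Among the type IV collagens, Col4a1 was at 7.65, 7.12 and 7.01 in WD mice and 6.68, 6.68 and 6.91 in SD mice. The lowest WD mouse was just above the highest SD mouse, and the difference was 0.50 ± 0.19 (limma adjusted p = 0.905). Without WD mouse 3 it was 0.31. Its head-to-head partner Col4a2 was at 7.71, 7.02 and 7.30 in WD mice and 7.22, 7.06 and 7.63 in SD mice, which overlapped, with a difference of 0.04 ± 0.22. Col4a3 was at 5.44, 5.56 and 5.55 in WD mice and 5.02, 5.11 and 5.34 in SD mice (difference 0.36 ± 0.14, limma adjusted p = 0.909), and was detected on all 3 WD arrays but on 1 SD array. Col4a4 was at 7.32, 7.35 and 7.75 in WD mice and 7.16, 7.08 and 7.44 in SD mice by its brightest probe, and its 3 tested probes differed in sign, from -0.06 to 0.26. Col4a5 was at 7.13, 6.95 and 6.09 in WD mice and 6.80, 6.56 and 6.46 in SD mice. Both genes overlapped between diets, and WD mouse 6 was the lowest of all mice for Col4a5. The multiplexin Col15a1, a proteoglycan collagen of the basement membrane zone, was at 5.87, 5.79 and 5.49 in WD mice and 4.94, 4.97 and 5.46 in SD mice. The diets did not overlap, and the difference was 0.59 ± 0.18 (limma adjusted p = 0.874). Like Col4a3, Col15a1 reached the detection minimum through 3 WD arrays and SD mouse 5, so the detection pattern and the difference are one measurement. Col18a1, the source of endostatin, was at 9.03, 9.01 and 8.69 in WD mice and 8.77, 8.80 and 8.76 in SD mice and overlapped.

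Of the 6 tested fibrillar genes, 0 had an unadjusted limma p under 0.05 by the brightest probe. Col5a1, which sets the diameter of collagen fibres, was at 9.04, 9.08 and 9.25 in WD mice and 9.42, 9.20 and 9.66 in SD mice (difference -0.30 ± 0.16, limma adjusted p = 0.936). Col3a1 was at 8.17, 7.25 and 8.13 in WD mice and 7.60, 7.94 and 7.74 in SD mice, and Col1a2 was at 6.67, 5.71 and 6.17 in WD mice and 6.41, 6.41 and 5.84 in SD mice. For both, WD mouse 4 was the lowest of all mice and WD mouse 3 the highest, so the spread within WD was wider than the difference between diets. Col2a1, better known from cartilage, was at 8.77, 8.48 and 9.13 in WD mice and 8.50, 8.74 and 8.72 in SD mice by its brightest probe. Its 3 tested probes all had a higher mean in WD, by 0.11 to 0.32, and the diets did not overlap at 1 of them.

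Taken by class, with the brightest tested probe for each gene, the median difference was 0.14 over 14 basement membrane genes (12 higher and 2 lower in WD) and -0.11 over 6 fibrillar genes (2 higher and 4 lower), beside 0.01 over all 11264 tested genes. Over the genes detected on all 6 arrays it was 0.13 for 12 basement membrane genes and 0.03 for 4 fibrillar genes. On leaving out each mouse in turn, the basement membrane median was lowest without WD mouse 3 (0.08) and highest without WD mouse 4 (0.23). The fibrillar median changed sign without SD mouse 2 (0.05) or without WD mouse 4 (0.03). In the deposited log2 values the basement membrane median was 0.08 and the fibrillar median -0.02. Without background correction the fibrillar median was -0.03, and without mice 5 and 6 it was -0.23. By class, the mean was higher in WD in 5 of 5 type IV collagen genes (median 0.25), 5 of 7 laminin chains (median 0.09), 3 of 7 FACIT collagens (median 0.00) and 2 of 6 other collagens (median -0.20), beside 51.7% of all tested genes. None of these genes passed the adjusted threshold. These medians describe lists and were not tested.

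**Figure D3:**
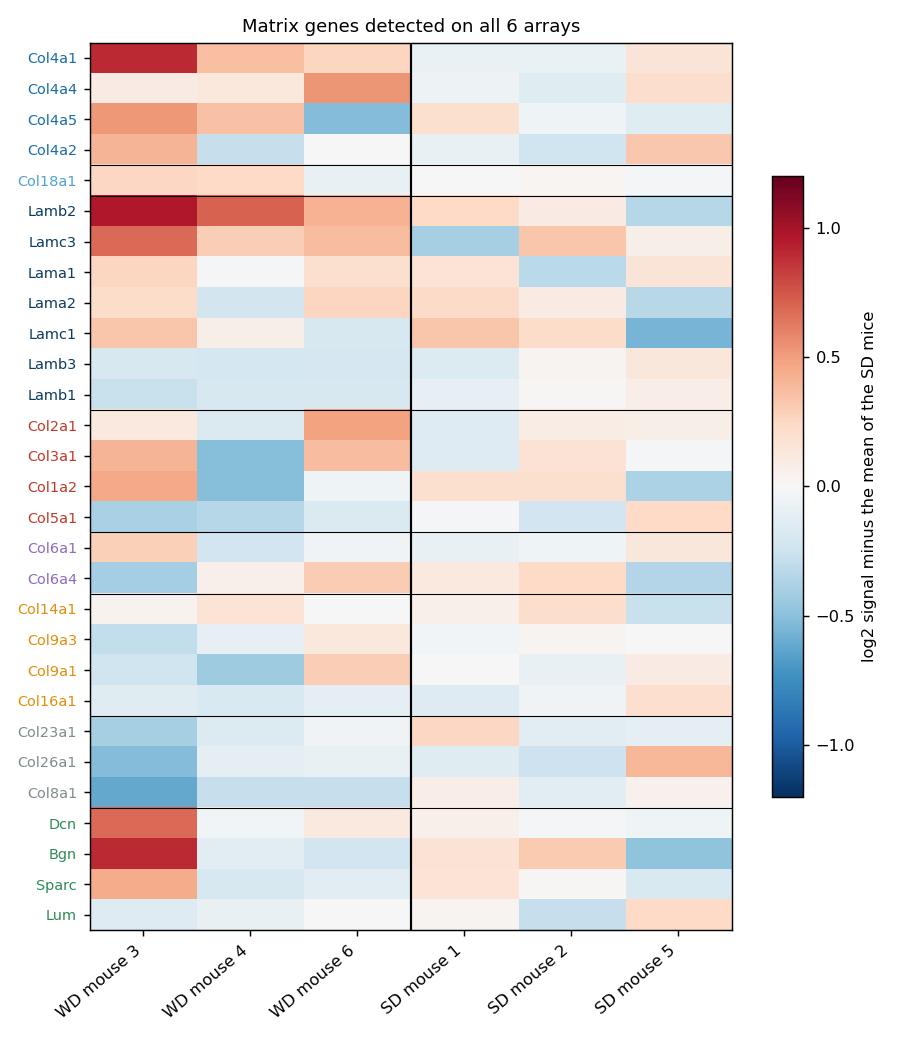
Log2 signal of each of the 29 matrix genes detected on all 6 arrays (rows), relative to the mean of the SD mice, in WD mice 3, 4 and 6 (left) and SD mice 1, 2 and 5 (right). WD mouse 3 was the highest of the 6 mice in 13 of the 29 genes (44.8%, against 23.7% of all 9697 genes detected on all 6 arrays), and WD mouse 4 in 0 (against 15.6%).

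Of the remaining collagens, 3 had a probe with an unadjusted limma p under 0.05. Col14a1, a FACIT collagen that binds fibre surfaces, was at 6.44, 6.18 and 6.42 in WD mice and 5.66, 6.06 and 5.85 in SD mice by the probe ILMN_1229714 (difference 0.49 ± 0.15, limma adjusted p = 0.874). Its brighter probe was at 6.22, 6.34 and 6.18 in WD mice and 6.24, 6.39 and 5.91 in SD mice, a difference of 0.07. Col17a1, a transmembrane collagen of hemidesmosomes, was at 5.99, 6.14 and 5.95 in WD mice and 5.30, 5.63 and 5.72 in SD mice by the probe ILMN_1216228 (difference 0.48 ± 0.15, limma adjusted p = 0.874), while its 2 other tested probes differed by -0.20 and 0.29. The network collagen Col8a1 was the one collagen probe among these that was lower in WD, at 5.70, 6.04 and 6.04 in WD mice and 6.40, 6.19 and 6.36 in SD mice. No WD mouse reached the lowest SD mouse, and the difference was -0.39 ± 0.15 (limma adjusted p = 0.905). The bright FACIT probes of Col9a3 (13.62, 13.82 and 14.05 in WD, 13.89, 13.96 and 13.93 in SD) and Col16a1 (10.97, 10.93 and 10.99 in WD, 10.96, 11.07 and 11.31 in SD) overlapped between diets. Col9a1, another type IX chain, was at 6.56, 6.37 and 7.09 in WD mice and 6.79, 6.71 and 6.90 in SD mice and overlapped too. The transmembrane collagen Col23a1 was at 6.91, 7.15 and 7.27 in WD mice and 7.56, 7.17 and 7.20 in SD mice, and Col26a1 at 6.39, 6.80 and 6.82 in WD mice and 6.76, 6.66 and 7.31 in SD mice. The beaded filament chains Col6a1 (7.88, 7.36 and 7.55 in WD, 7.51, 7.54 and 7.73 in SD) and Col6a4 (6.85, 7.32 and 7.56 in WD, 7.37, 7.50 and 6.90 in SD) differed by 0.01 and -0.02. All 4 genes overlapped between diets.

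**Figure D4:**
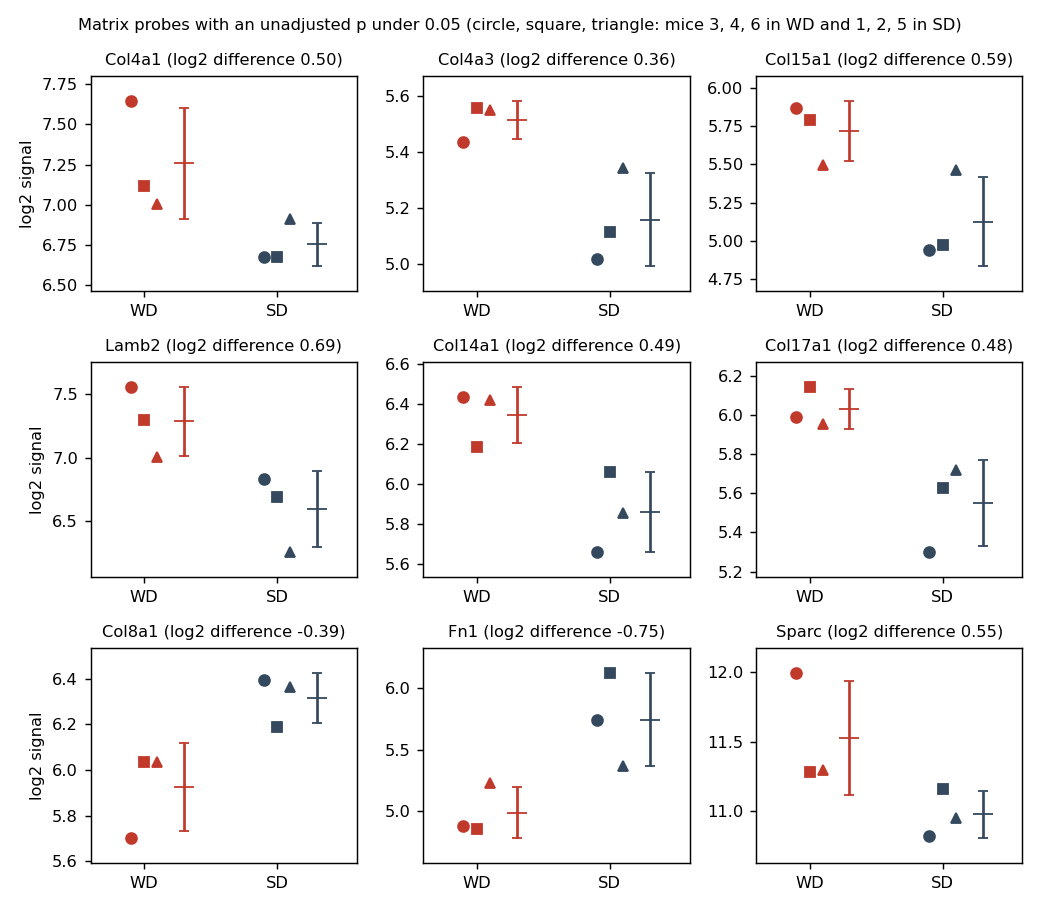
Log2 signal (y axis) of each of the 9 matrix probes with an unadjusted p under 0.05, in each WD mouse (left) and each SD mouse (right) of every panel, with bars for the mean and SD of each diet. In Lamb2 the 3 WD mice lie between 7.01 and 7.56, above the 3 SD mice.

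The glycoproteins and proteoglycans depended on the probe. Sparc, a collagen-binding glycoprotein made by several testis cell types, was at 12.00, 11.28 and 11.29 in WD mice and 10.82, 11.16 and 10.95 in SD mice by the probe ILMN_3136561 (difference 0.55 ± 0.21, limma adjusted p = 0.925, and 0.31 without WD mouse 3). A second Sparc probe differed by 0.43 with no overlap, and the brightest, ILMN_1243212, by 0.04, at 12.24, 11.61 and 11.66 in WD mice and 11.96, 11.81 and 11.61 in SD mice. The 2 tested probes of Fn1, which codes for fibronectin, were of opposite sign. ILMN_2588227 was at 4.88, 4.86 and 5.23 in WD mice and 5.74, 6.12 and 5.37 in SD mice, and was detected on no WD array and on all 3 SD arrays. Since it passed the detection minimum through SD alone it had to differ (limma adjusted p = 0.865). With the background correction used, the bound was 1.32-fold (0.40 in log2) lower in WD testis, from means and without sampling error. Without that correction and in the deposited log2 values the difference was -0.26 and -0.23, smaller than this bound. ILMN_2595714 was at 5.50, 5.13 and 5.77 in WD mice and 4.75, 5.07 and 5.36 in SD mice. Dcn was at 11.13, 10.42 and 10.57 in WD mice and 10.52, 10.44 and 10.41 in SD mice by its brightest probe, and Bgn at 10.14, 9.12 and 9.01 in WD mice and 9.42, 9.56 and 8.76 in SD mice. The difference was 0.25 at that Dcn probe and 0.39 at its second tested probe, and the diets overlapped at each. For both genes, WD mouse 3 stood above the other mice. Lum, another leucine-rich proteoglycan, was at 6.34, 6.42 and 6.50 in WD mice and 6.53, 6.23 and 6.75 in SD mice by its brightest probe, and its 2 probes differed in sign, by -0.08 and 0.12.

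Covariation of the members was described across the 6 mice. After each diet's mean was removed, the median Pearson r over 406 pairs of the 29 genes was 0.06, against 0.00 over all pairs of genes detected on all 6 arrays, and 21.4% of member pairs were above 0.5, against 20.8% of all pairs. It was 0.00 within the basement membrane genes (66 pairs), 0.26 within the fibrillar genes (6 pairs) and 0.21 between these classes (48 pairs). The mice and arrays behind all pairs are the same, and these values are descriptions. Each gene was read at its brightest probe, which for Sparc was ILMN_1243212. In SD mice 1, 2 and 5 this probe was at 11.96, 11.81 and 11.61, while ILMN_3136561 was at 10.82, 11.16 and 10.95. Values of r with the other Sparc probes are not given. The genes most like Sparc over the 6 mice were Dcn (r = 0.94), Bgn (r = 0.94), Col1a2 (r = 0.90) and Lamb2 (r = 0.81), and the least like it was Col26a1 (r = -0.81). WD mouse 3 was the highest mouse for Sparc and for each of the 4 genes most like it. Without that mouse, an alternative chosen after seeing the data, r with Sparc was 0.67 for Dcn, 0.79 for Bgn, 0.82 for Col1a2 and 0.82 for Lamb2. Some other members changed further, from 0.66 to -0.89 for Col4a1, from 0.60 to -0.65 for Col6a1 and from -0.38 to 0.80 for Col6a4. The genes most like Sparc were then Lamc1 (r = 0.87) and Lama2 (r = 0.84).

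Partner genes of the matrix were listed by role. Of 115 listed genes, 61 were tested, of which 42 had a higher mean in WD (68.9%, against 51.7% of all tested genes) and 19 a lower one. An unadjusted limma p under 0.05 was found for 5 that were higher (8.2%, against 2.48%) and 2 that were lower (3.28%, against 2.08%), and an adjusted one for none. Basement membrane partners had a higher mean in WD in 5 of 6 (median 0.12), with differences of 0.10 for Smoc1 and 0.15 for Fbln1, the brightest of the list. Folding and cross-linking enzymes were higher in 11 of 17 (median 0.19), with 0.21 for P4hb, a subunit of the prolyl hydroxylase of collagen, and 0.20 for Loxl1, a cross-linking oxidase. Elastic fibre and other matrix proteins were higher in 13 of 16 (median 0.22), with Ltbp4 and Ltbp3, which hold latent TGF-β in the matrix, higher by 0.60 and 0.46, the proteoglycan Omd higher by 0.44, and Tnc, which codes for tenascin C, lower, with a difference of -0.49. The brightest of this list, Ccn2 and Prelp, differed by 0.24 and 0.20. Among turnover genes 5 of 9 were higher. Timp3, an inhibitor of matrix metalloproteinases that is held in the matrix, was at 8.98, 8.62 and 8.72 in WD mice and 8.32, 8.24 and 8.36 in SD mice, and Timp2 at 11.85, 11.64 and 11.53 in WD mice and 11.22, 11.32 and 11.45 in SD mice. Neither overlapped between diets. Receptors were higher in 8 of 13, and the syndecan Sdc3 was lower, with a difference of -0.47. The brightest receptors, the integrin chain Itgb5 and the syndecan Sdc4, differed by -0.05 and 0.25.

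Markers of the cells that make matrix were measured on the same arrays. The median level of 6 tested peritubular markers, relative to the SD mean, was 0.37, 0.28 and 0.28 in WD mice 3, 4 and 6 and 0.00, -0.08 and 0.12 in SD mice 1, 2 and 5, and 3 of the 6 were higher with an unadjusted limma p under 0.05 (Acta2 by 0.33, Myl9 by 0.63 and Myh11 by 0.66). The other 3 were Actg2, the brightest (-0.08), Smtn (0.09) and Des (0.02). The same median for the 14 basement membrane genes was 0.31, 0.18 and 0.22 in WD mice and -0.07, -0.01 and 0.11 in SD mice. These 14 include Col4a3 and Col15a1, which passed the detection minimum through WD. For the 12 detected on all 6 arrays it was 0.296, 0.097 and 0.095 in WD mice and -0.034, 0.018 and 0.072 in SD mice. The summed linear signal of the peritubular list ranged from 13506 to 14107 in WD mice and from 12976 to 13845 in SD mice. Endothelial markers (5 of 8 tested) summed to 320 to 364 in WD mice and 201 to 310 in SD mice. Sertoli (8 tested), Leydig (7) and macrophage (8) lists were highest in WD mouse 3, at medians of 0.33, 0.65 and 0.55 above the SD mean. Their summed signals were 11951 to 16398 in WD and 11713 to 13091 in SD mice for Sertoli, 44209 to 59458 in WD and 41287 to 47690 in SD mice for Leydig, and 2095 to 3450 in WD and 1745 to 1893 in SD mice for macrophage markers. An unadjusted limma p under 0.05, always with a higher mean in WD, was found for 2 endothelial, 2 macrophage, 1 Leydig and 0 Sertoli markers. Of all tested genes, 2.48% were called higher in WD, the share for these counts and the peritubular one. All 4 tested fibroblast markers had a higher mean in WD (median 0.28), against 51.7% of all tested genes. Their summed signals were 304 to 426 in WD and 257 to 305 in SD mice, and Pdgfra did not overlap between diets (difference 0.36). The part of these cell types in the matrix values was not tested. The labelled tissue held its defining transcripts, since Insl3 of Leydig cells, Cldn11 of Sertoli cells and Tnp1 of spermatids were detected on all 6 arrays. Of the 6 genes of the epididymis and vas list on the array, 1 was detected on enough arrays to be tested. This was Defb19, at 14.63, 14.20 and 14.27 in WD mice and 14.01, 13.77 and 14.12 in SD mice, with no overlap (difference 0.40). Whether Defb19 marks epididymal tissue in these samples was not tested. Of the adipocyte list 1 gene was tested, Adipoq, with a difference of -0.16.

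**Figure D5:**
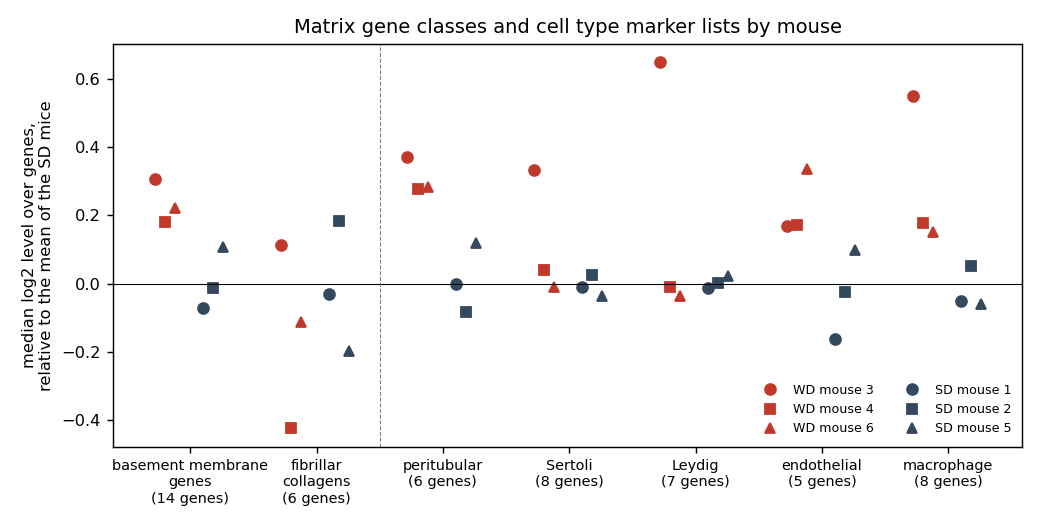
Median log2 level over the tested genes of matrix classes and cell type marker lists in each mouse (y axis), relative to the mean of the SD mice, with WD mice 3, 4 and 6 left of SD mice 1, 2 and 5. The basement membrane genes and the peritubular, endothelial and macrophage markers were above the SD mean in all 3 WD mice. The basement membrane genes include Col4a3 and Col15a1, which passed the detection minimum through WD.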

How the data were processed

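The deposited bead intensities, exported by the authors from GenomeStudio (version not given in the sources used here), were neither background-subtracted nor scaled. The deposited detection columns hold a score that rises with intensity, and its distance from 1 was read as the detection p. As an alternative, the log2 values that the authors deposited were used, which are the log2 intensity minus the array's upper quartile and a constant per probe of unknown origin, with scale and direction known.

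Intensities were corrected and quantile normalized with neqc (limma 3.58.1, R 4.3.3, offset 16), and 19763 probes detected (p under 0.05) on at least 3 of 6 arrays were fitted with lmFit and eBayes, WD minus SD, with Benjamini-Hochberg adjustment. The fit was run on simulated data with known differences, and the estimated differences followed those put in. How often differences of the size seen here would pass the adjusted threshold is not reported here. The number of arrays limits precision, and p-values measure the spread between these mice. Raw median intensity was 159.3, 146.6 and 120.1 in WD mice 3, 4 and 6 and 172.5, 152.4 and 126.2 in SD mice 1, 2 and 5, and 42% to 47.1% of probes were detected. Gene names came from the platform annotation, and 124 of 124 member probes matched RefSeq by Entrez number. A gene's brightest tested probe stood for it in the lists. In each role any gene whose brightest probe was detected on all 6 arrays could be named, and the brightest 4 were given in every mouse. Member probes with an unadjusted p under 0.05 and genes whose tested probes differ in sign were named too. Of each partner list, the 2 brightest genes and those with an unadjusted p under 0.05 were named. Members and lists were chosen with earlier results of these data known. Alternatives changed background, scaling, offset, filter, variance trend, mice 5 and 6 (labelled by a letter alone) and each mouse.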

Additional observations from a re-analysis of the deposited data

How the results depend on the processing

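The limits are those of 3 mice per diet. No probe passed an adjusted p of 0.05 in any of the 16 alternatives, counting those that leave out 1 mouse, so no call could be lost. The unadjusted counts changed when single mice were left out. The named probes of Col14a1, Col15a1, Col17a1, Fn1 and Lamb2 kept an unadjusted limma p under 0.05 without any 1 of the 6 mice. Of these, Col15a1 and Fn1 passed the detection minimum through 1 diet. Those of Col4a1, Col4a3, Col8a1 and Sparc did not keep it. The count of 9 member probes with an unadjusted p under 0.05 was 5 among probes detected on all 6 arrays (13.2%, against 4.96% of all such probes). On leaving out 1 mouse it ran from 5 without SD mouse 1 (8.77%, against 3.88% of all tested probes) to 11 without WD mouse 6 (19.3%, against 7.95%). It stayed within 1.5 times in the other alternatives, with 6 higher and 3 lower under median scaling against 7 higher and 2 lower. The probes behind the count changed, however. Without background correction it was 8. The named probes of Col14a1, Col15a1, Col17a1, Col4a3 and Col8a1 left it, and Col2a1 (ILMN_2759142), Col5a1, Dcn (ILMN_2596346) and Sparc (ILMN_3059326) entered. In the deposited log2 values it was 7. Col14a1, Col17a1, Col4a3 and Col8a1 left it, and Col5a1 and Sparc (ILMN_3059326) entered. The basement membrane median of 0.138 was 0.230 without mice 5 and 6 and ran from 0.0795 to 0.232 on leaving out 1 mouse. No paired analysis was possible because no mouse number occurs in both diets.

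The sign of a log2 difference turned at 10 of the 57 member probes in an alternative other than leaving out 1 mouse. Under median scaling these were Col22a1 (-0.00566), Col6a1 at ILMN_2768087 (-0.0264) and Sparc at ILMN_1243212 (-0.0411). In the deposited log2 values they were Col19a1 (0.0396), Col1a2 (0.00706), Col6a1 at ILMN_2768087 (-2.4e-05) and Sparc at ILMN_1243212 (-0.0415). Without mice 5 and 6 they were Col14a1 at ILMN_2591027 (-0.0343), Col19a1 (0.169), Col22a1 (-0.0891) and Col3a1 (-0.0581). Also turned without mice 5 and 6 were Col6a1 at ILMN_1259388 (-0.00035), Lama2 (-0.169) and Lamc1 at ILMN_2774596 (-0.0769). The cause was not tested. None of these had an adjusted p under 0.05. The sign turned at 28 of the 57 on leaving out 1 mouse.
On leaving out 1 mouse in turn, the log2 difference between diets ran from -0.18 to 0.384 for Bgn (ILMN_2964042), -0.387 to 0.0475 for Col11a2 (ILMN_2865074), -0.067 to 0.174 for Col14a1 (ILMN_2591027), -0.51 to 0.149 for Col17a1 (ILMN_2879995), -0.183 to 0.326 for Col19a1 (ILMN_1220347), -0.279 to 0.202 for Col1a2 (ILMN_1253806) and -0.128 to 0.156 for Col22a1 (ILMN_2707616). Likewise it ran from -0.362 to 0.0357 for Col26a1 (ILMN_1234674), -0.0312 to 0.298 for Col2a1 (ILMN_1246054), -0.0593 to 0.269 for Col2a1 (ILMN_2759144), -0.0666 to 0.39 for Col3a1 (ILMN_1258629), -0.14 to 0.204 for Col4a2 (ILMN_2822579), -0.134 to 0.563 for Col4a4 (ILMN_2679871) and -0.174 to 0.109 for Col4a4 (ILMN_2983387). It ran also from -0.0845 to 0.435 for Col4a5 (ILMN_2437848), -0.0213 to 0.36 for Col4a5 (ILMN_2734755), -0.0197 to 0.152 for Col6a1 (ILMN_1259388), -0.134 to 0.126 for Col6a1 (ILMN_2768087), -0.193 to 0.179 for Col6a4 (ILMN_2760531), -0.0438 to 0.333 for Col7a1 (ILMN_2901944) and -0.335 to 0.027 for Col9a1 (ILMN_2439360). Finally, it ran from -0.2 to 0.0117 for Col9a3 (ILMN_2733257), -0.0192 to 0.226 for Lama1 (ILMN_2973288), -0.0811 to 0.24 for Lama2 (ILMN_2769479), -0.208 to 0.239 for Lamc1 (ILMN_2774596), -0.219 to 0.0387 for Lum (ILMN_2773259), -0.0899 to 0.232 for Lum (ILMN_3001540) and -0.163 to 0.153 for Sparc (ILMN_1243212).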
